A study of Mus musculus with 12 samples.

Results

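A distal segment of mouse chromosome 11, the 11 Mb that end at 120 Mb (mm10), held 787 of the 67822 windows in which H3K27ac was counted. Its members were all windows of 1000 bp lying wholly inside these limits, the first at chr11:109011347-109012347 and the last at chr11:119990996-119991996. A further 4718 windows lay elsewhere on chromosome 11. The segment was chosen by the KO-over-WT differences in H3K27ac between Nlrp3 knockout (KO) and wild-type (WT) microglia, since its limits were drawn around windows with small p-values of that contrast. They are given here as a description and are not tested again. The input libraries and the comparison of H3K27ac with input took no part in that choice.

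The libraries came from CD11b+ microglia isolated with magnetic beads from mouse forebrain, in 4 groups of 3: H3K27ac immunoprecipitates of KO mice, H3K27ac immunoprecipitates of WT mice, input chromatin of KO mice and input chromatin of WT mice. The KO carries a disrupted Cias1 (Nlrp3) gene and is named Nlrp3-/- (Millennium Pharmaceuticals). The WT mice have a C57BL/6N background, and the labels name no strain beside the KO. No treatment, age or sex is given, and the labels do not say whether replicates are separate animals. WT replicate 1 had 0 tags at Y-linked promoters in H3K27ac and in input, where WT replicates 2 and 3 had some in both, so its source was another one than theirs. Between the remaining libraries the spread behind the p-values may be technical.

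H3K27ac is a histone modification, an acetyl group on lysine 27 of histone H3, found at promoters and enhancers in use. It is laid down by acetyltransferases that transcription factors recruit, and in microglia many such sites are opened by PU.1, an ETS-family factor of the macrophage lineage. Nlrp3 encodes the sensor of an inflammasome and itself lies on chromosome 11, at chr11:59541569-59566955, which ends 49.4 Mb before the segment begins. The segment holds genes of macrophage interest, among them the CD300 cluster of immunoglobulin-like receptors that bind lipids on dying cells, the cytokine feedback inhibitor Socs3 and the lysosomal glucosidase Gaa.

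At several start sites of the segment, that of Slc16a6 among them, the KO and WT libraries did not overlap in H3K27ac. Promoter sequences are shown for 3 genes with such a start site, as examples. They run 5′ to 3′ on the gene's own strand, from 250 bases before to 50 bases after a start site (RefSeq, GRCm38.p6, the build family of mm10), and all 3 are on the minus strand. Capitals mark GGAAGT, the core letters of ETS-factor sites such as that of PU.1, searched on both strands (reverse complement ACTTCC).
Cd300lf, chr11:115133943-115134242: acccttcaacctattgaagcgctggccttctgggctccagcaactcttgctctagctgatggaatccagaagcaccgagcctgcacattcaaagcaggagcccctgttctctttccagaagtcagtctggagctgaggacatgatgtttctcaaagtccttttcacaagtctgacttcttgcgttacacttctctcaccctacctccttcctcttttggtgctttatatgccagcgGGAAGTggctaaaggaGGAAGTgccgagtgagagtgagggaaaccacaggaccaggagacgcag
Cd300c2, chr11:115001831-115002130: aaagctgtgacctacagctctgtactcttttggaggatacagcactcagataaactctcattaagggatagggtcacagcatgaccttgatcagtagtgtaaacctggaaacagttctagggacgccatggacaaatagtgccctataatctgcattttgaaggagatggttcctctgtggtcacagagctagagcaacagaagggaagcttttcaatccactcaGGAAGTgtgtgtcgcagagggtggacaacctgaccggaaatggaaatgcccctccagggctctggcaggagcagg
Cdc42ep4, chr11:113751766-113752065: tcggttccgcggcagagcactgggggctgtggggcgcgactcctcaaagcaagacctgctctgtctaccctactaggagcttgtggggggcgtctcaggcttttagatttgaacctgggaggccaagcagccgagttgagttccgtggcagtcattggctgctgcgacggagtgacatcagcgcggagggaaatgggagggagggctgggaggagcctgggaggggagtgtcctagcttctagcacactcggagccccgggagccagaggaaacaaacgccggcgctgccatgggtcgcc
The Cd300lf promoter held the letters at 2 places, the Cd300c2 promoter at 1, and this Cdc42ep4 promoter at 0. Of the 253 RefSeq promoters inside the segment, 61 (24.1%) held GGAAGT, against 7809 of all 32851 promoters (23.8%). The motif was thus about as frequent in the segment as elsewhere. Of the segment's 164 genes with a window, 115 had a promoter sequence.

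The cells and the targeted gene were checked first. At the Nlrp3 start site (window chr11:59542134-59543134), KO replicates 1, 2 and 3 had 1, 0 and 16 H3K27ac tags, against 180, 180 and 195 in WT. Input there had 0, 0 and 0 tags in KO and 10, 5 and 3 in WT. The part that input or the underlying DNA has in this difference was not tested. Another start-site window, chr11:59541020-59542020, kept 17, 20 and 43 H3K27ac tags in KO, against 138, 91 and 119 in WT. All 8 microglia markers examined had a promoter window, with a median of 15.5 times the input in KO and 12.7 times in WT. The 4 markers each of neurons, astrocytes, lymphocytes, and monocytes and neutrophils had no promoter window, and the 2 of 4 oligodendrocyte markers that had one had a median of 2.27 times the input in KO and 2.57 times in WT. Libraries held 4531757 to 5028129 tags in KO H3K27ac, 3726550 to 4492763 in WT H3K27ac, 3333947 to 6961590 in KO input and 3287009 to 4926821 in WT input. WT replicate 1 alone had 0 H3K27ac tags at Y-linked promoters, against 183 to 239 in the other 5 H3K27ac libraries, so the sexes may not have been balanced between genotypes. Its part in the differences between KO and WT was not tested, and values without this library are given beside the main counts. In bulk chromatin, fewer cells carrying a mark and less of the mark per cell cannot be told apart.

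The windows of the segment were spread unevenly. The megabase from 117 Mb held 146 windows, the megabase from 115 Mb held 136, and the megabase from 112 Mb had no window. By annotation 352 windows (44.7%) were intronic, 221 (28.1%) intergenic and 143 (18.2%) at promoters, against 42.8%, 30.4% and 19.5% of windows outside the segment. In all, 192 windows lay within 1 kb of a transcription start site (TSS), and 185 overlapped the window before them and share tags with it.

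Each window also carries the accessible-site lists from which it was merged, 1 list per genotype. In the segment 61 windows (7.75%) stood in the KO list alone, 169 (21.5%) in the WT list alone and 557 (70.8%) in both. Outside the segment the KO list alone had 8.18% of windows and the WT list alone 16.2%. On the rest of chromosome 11 these shares were 7.61% and 15.8%. Each genotype has a single list, so the larger WT-only share has no replicate check.

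Levels are given as CPM, tags scaled by the total tags of the library. Together the 787 windows collected 4720, 4956 and 3941 CPM of H3K27ac in KO replicates 1, 2 and 3, and 4962, 4411 and 5048 in WT. The groups overlapped, at 4539 ± 531 in KO and 4807 ± 346 in WT (SD, n = 3 each). Across bins, the megabase from 116 Mb was highest in KO, at 923 ± 95.1 CPM in KO and 976 ± 103 in WT. The megabase from 113 Mb was lowest in KO, at 78.5 ± 17.8 in KO and 102 ± 12.1 in WT. Much of the signal thus lay in the stretch from 115 to 118 Mb in both genotypes.

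**Figure D1:**
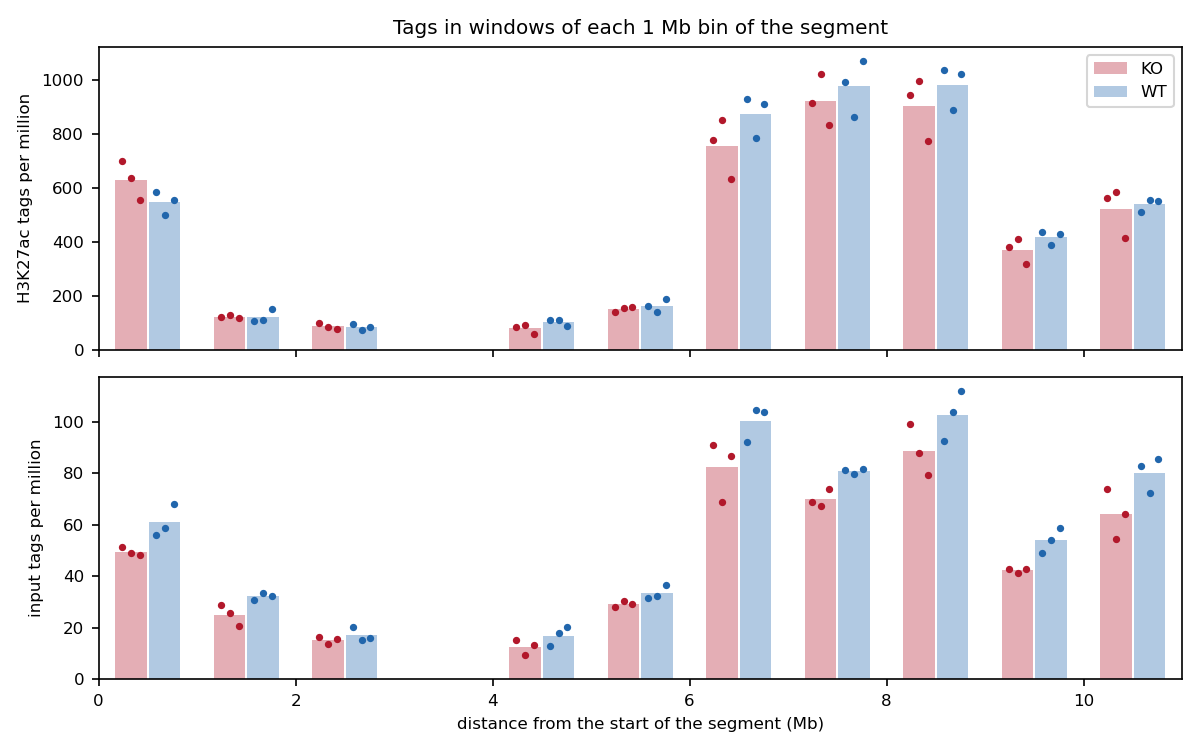
CPM in the windows of each 1 Mb bin of the segment, against the distance from its start; the upper panel shows H3K27ac and the lower panel input, with KO left (red) and WT right (blue). Bars are means of 3 libraries and points are libraries; the bin from 116 Mb reached 923 in KO and 976 in WT for H3K27ac.

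H3K27ac stood well above input in most of the segment's windows that could be tested. In KO, 331 of 332 tested windows were higher in H3K27ac than in input (edgeR's quasi-likelihood test, Benjamini-Hochberg adjusted p under 0.05), where the share over all tested windows was 99.0%, with 0.439% lower. In WT, 327 of 329 were higher, against 98.6% over all tested windows, with 0.434% lower. The segment's shares were therefore near the background. The median log2 ratio of H3K27ac over input in tested windows was 3.72 in KO and 3.51 in WT, and over all tested windows 3.62 and 3.46. The filter on low counts left out the other members, and these counts do not speak of those. Input had a median of 2 to 4 tags per window, so windows passed the filter mainly through H3K27ac. The near-full shares were thus largely set by it. Without the filter, 411 of 785 windows were higher and 15 lower in KO, and 387 of 786 higher and 13 lower in WT. The median log2 ratios were then 2.22 in the segment and 2.29 over all windows in KO, and 2.02 and 2.09 in WT.

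In both genotypes 280 windows passed, out of 380 tested in either genotype. A further 51 passed in KO but were left out of the WT fit by the filter on low counts. Another 47 passed in WT but were left out of the KO fit in the same way. This split was therefore set by the filter and does not show that H3K27ac failed to exceed input in the other genotype. The difference between these last groups was not tested. Both fits scale libraries to their total tags. With trimmed-mean (TMM) scaling, which assumes that most windows do not differ, 58 windows of the segment were called higher and 21 lower in KO, and 52 higher and 21 lower in WT.

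The window that failed in KO was the first inside the segment, chr11:109011347-109012347, 91498 bases from the TSS of Axin2 and annotated on a ribosomal RNA repeat. Its input was high, with 38, 20 and 28 tags in KO and 36, 31 and 23 in WT. H3K27ac there had 19, 53 and 23 tags in KO and 29, 62 and 44 in WT, a log2 ratio over input of 0.12 in KO (adjusted p = 0.777) and 0.62 in WT (adjusted p = 0.0892).

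The strongest H3K27ac of the segment lay at Unk, which encodes an RNA-binding zinc finger protein. Its window chr11:116030721-116031721, in intron 1, had 280, 389 and 195 tags in KO and 232, 279 and 308 in WT, or 59.6 ± 18.99 CPM in KO and 65.7 ± 6.11 CPM in WT. The log2 ratio of this window over input was 5.59 in KO (SE 0.326, adjusted p = 3.62e-63) and 5.37 in WT (SE 0.338, adjusted p = 1.53e-36). The groups overlapped.

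After Unk, the highest windows, 1 per gene, were at Tmem104 (46.6 ± 9.08 CPM in KO and 45.6 ± 1.87 in WT), Mir6516 (41.8 ± 6.70 and 50.2 ± 9.61) and the promoter of Gna13, a G protein alpha subunit (50.3 ± 7.52 and 40.1 ± 9.11). Next came the promoter of the monocarboxylate transporter family gene Slc16a6, annotated also as that of Arsg (47.3 ± 2.58 in KO and 42.0 ± 2.64 in WT), a window 9512 bases from the TSS of Socs3 (42.4 ± 7.06 and 43.4 ± 11.1) and the promoter of the ubiquitin ligase gene Trim47 (41.9 ± 9.40 and 39.6 ± 13.4). Wbp2, Gm11696 and Atp5h completed the 10. Over these 10 windows the log2 fold changes of KO over WT ran from -0.31 at Atp5h to 0.34 at Gna13. Slc16a6 alone had KO libraries that did not overlap with WT.

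KO and WT differed far more at a limited number of places. The fit tested 440 of the 787 windows. Of these, 12 (2.73%) had an unadjusted p under 0.001, against 0.233% of all tested windows, with 7 lower in KO (0.149% of all) and 5 higher (0.0842% of all). Windows with an adjusted p under 0.05, by edgeR's quasi-likelihood test, numbered 4 (0.909%), against 0.0595% of all tested. An unadjusted p under 0.05 was found in 46 (10.5%), against 4.69% of all. Because these p-values drew the segment's limits, nothing is read from the counts. Without WT replicate 1, 7 of the 12 windows stayed under 0.001 and 3 of the 4 stayed under an adjusted 0.05. Leaving out WT replicate 2 left 1 of the 4, at Rnf157, and leaving out KO replicate 1 or 2 left both Rnf157 windows.

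The log2 fold changes of the tested windows had an SD of 0.97 in the segment, 0.61 on the rest of chromosome 11 and 0.57 on the other chromosomes. The segment's SD included the Rnf157 and Gaa windows at 0 tags in a genotype, fitted at -8.54, -8.25 and 7.92. Such folds are only bounds, and the SD without them was not computed. The quartiles were -0.39 and 0.25 in the segment and -0.30 and 0.32 over all tested windows. The median was -0.05 in the segment and 0.00 over all tested windows. Of the segment's tested windows 54.1% were below 0, against 49.6% of all. An absolute log2 fold change above 1 was found in 13.2% of them, against 7.56% of all. KO and WT libraries did not overlap in 66 of them (15%), against 10.1% of all. The same contrast chose the segment, so these shares are descriptions.

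**Figure D2:**
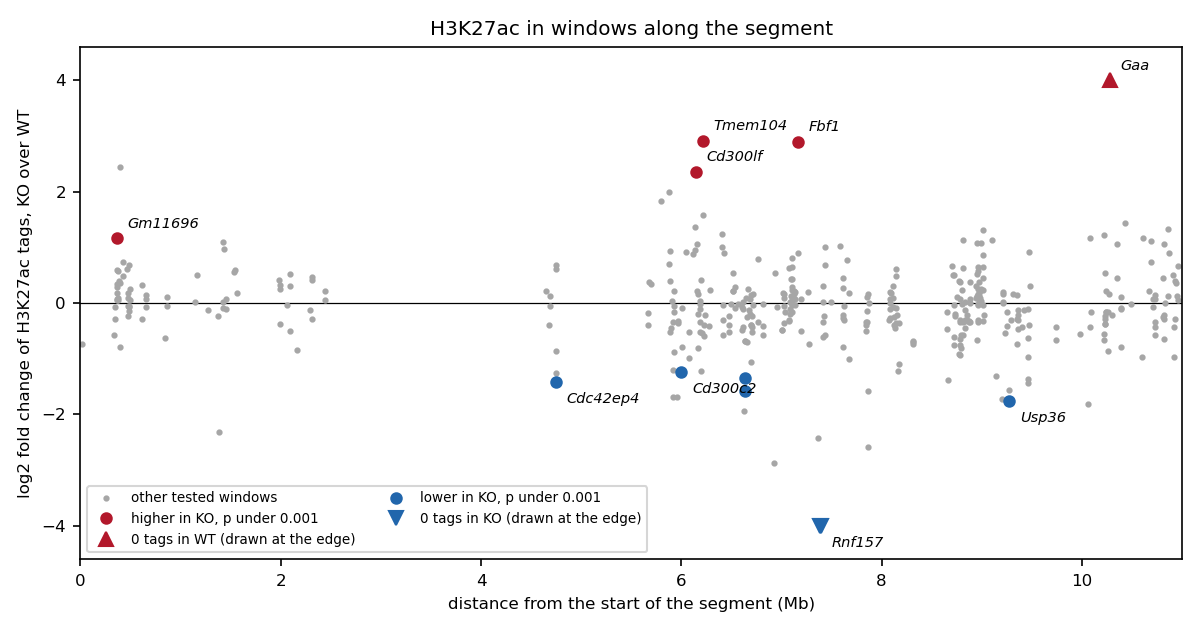
Log2 fold change of H3K27ac tags, KO over WT, in the 440 tested windows against the distance in Mb from the start of the segment. Grey points are windows with p of 0.001 or more, red points the 5 higher and blue points the 7 lower windows, named where described in the text; triangles mark windows at 0 tags in a genotype, drawn at the edge because their fold is only a bound, and the 2 windows at Rnf157 lie under 1 triangle.

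The 12 windows fell into 10 loci when windows under 50 kb apart were joined. By annotation 8 were intronic, 2 intergenic and 2 within 1 kb of a TSS. They stood in both site lists in 8 cases, in the WT list alone in 2 and in the KO list alone in 2. A second set, windows with 0 tags in every library of 1 genotype and at least 5 in each of the other, held 5 windows. That is 1.06% of the 471 segment windows with at least 5 tags in each library of a genotype, against 0.0902% over the table. Both sets together made 14 windows at 12 loci, of which 12 windows are described here. Of the described windows, only those at Rnf157 and Gaa had an adjusted p under 0.05 by edgeR's quasi-likelihood test. By the same test, the others that were tested had adjusted p-values from 0.0813 at Cd300c2 to 0.418 at Cd300lf. Their differences are thus descriptions and were not called.

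The CD300 receptors, which carry activating or inhibitory signals in myeloid cells, lay at 2 of these loci and differed in opposite directions. Cd300lf encodes an inhibitory receptor that binds phosphatidylserine and other membrane lipids. Its window 8188 bases upstream of the TSS, chr11:115141680-115142680, lies in intron 1 of the neighbouring Rab37, a Rab GTPase gene, and had 33, 35 and 70 H3K27ac tags in KO replicates 1, 2 and 3, against 1, 6 and 17 in WT. Every KO library was above every WT library, with a log2 fold change of 2.36 (SE 0.631). Without WT replicate 3, the WT library with most tags there, the log2 fold change was 3.47. Input there was low in both, at 5, 2 and 3 tags in KO and 3, 1 and 7 in WT.

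The other windows of Cd300lf lay on the same side. The promoter window that contains the sequence printed above had 63, 117 and 85 tags in KO and 29, 44 and 44 in WT, a log2 fold change of 0.96. A window 5080 bases upstream, also inside Rab37, had 74, 95 and 40 tags in KO and 32, 14 and 22 in WT (1.36). The fourth, 14382 bases into the gene, had 27, 17 and 13 tags in KO and 3, 8 and 16 in WT (0.88). Summed over its 4 windows, Cd300lf had 197, 264 and 208 tags in KO and 65, 72 and 99 in WT, with no overlap (log2 fold change 1.29, SE 0.244).

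Cd300c2, another receptor gene of the cluster, went the other way. The window at its start site, chr11:115001152-115002152, contains the printed promoter and had 88, 94 and 42 tags in KO, against 161, 139 and 147 in WT. It was lower in every KO library, with a log2 fold change of -1.24 (SE 0.257), at 15.5 ± 6.09 CPM in KO and 36.3 ± 6.28 in WT. A window 2412 bases upstream had 44, 56 and 45 tags in KO and 85, 59 and 70 in WT (-0.79).

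The other CD300 genes did not share 1 direction. Cd300a, an inhibitory receptor gene, had 18.2 promoter CPM in KO and 26.1 in WT, but a log2 fold change of -0.03 (SE 0.197) over its 8 windows. Cd300c had 8, 8 and 0 promoter tags in KO and 13, 11 and 20 in WT. Of the 12 CD300 genes listed, 8 had windows here and 7 were tested: 2 were above 0 and 5 below, with a median log2 fold change of -0.49, where the median over all genes was 0.00. One was called higher (Cd300lf) and 1 lower (Cd300c2), where 0.206% of all genes were called; the contrast is the one that chose the segment. The Cd300c2 call was lost in each of the 6 fits that left out 1 library, with total tags, with the replicate block and with promoter windows alone.

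Cdc42ep4, an effector of the small GTPase CDC42 that acts on the actin and septin cytoskeleton, was lower in KO at its promoter. The window chr11:113751388-113752388, which contains the printed sequence, had 28, 25 and 25 tags in KO, against 55, 80 and 46 in WT (log2 fold change -1.42, SE 0.380). Input was also lower there, with 5, 1 and 1 tags in KO and 6, 5 and 8 in WT. The overlapping window further upstream had 17, 33 and 26 tags in KO and 49, 73 and 33 in WT (-1.25). Inside the gene, 3851 bases from the TSS, the difference turned round, with 22, 30 and 24 tags in KO and 11, 15 and 17 in WT (0.61).

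Rnf157, a ubiquitin ligase gene with high expression in brain, had no H3K27ac tag in KO at 2 places in intron 2 of 18. The window chr11:116388895-116389895 had 0, 0 and 0 tags in KO, against 41, 33 and 55 in WT. At chr11:116394542-116395542 KO had 0, 0 and 0 tags and WT 31, 49 and 25. With 3 tags over the 3 KO libraries as the floor, these windows were at least 50.02-fold and at least 40.7-fold lower in KO. Both stood in the WT site list alone.

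Input at these places was also lower in KO. The first window had 0, 0 and 0 input tags in KO and 4, 4 and 1 in WT, and the second 1, 0 and 1 in KO and 2, 6 and 3 in WT. A further 3 windows of the same intron, nearest by TSS to Foxj1, were again in the WT list alone, and the first of them had 1, 13 and 3 H3K27ac tags in KO and 12, 16 and 51 in WT. The Rnf157 promoter did not share the difference: its window at chr11:116412588-116413588 had 17, 47 and 44 tags in KO and 34, 33 and 25 in WT (log2 fold change 0.01). The part that input or the underlying DNA has in the intronic difference was not tested.

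Usp36, a nucleolar deubiquitinase gene, was lower in KO in intron 9 of 20. The window chr11:118274759-118275759 had 11, 24 and 13 tags in KO, against 43, 48 and 48 in WT (log2 fold change -1.76, SE 0.451). WT replicates were nearly equal and every KO library was below them. A second intronic window, at chr11:118269929-118270929, had 9, 9 and 3 tags in KO and 12, 17 and 25 in WT (-1.57). The Usp36 promoter had 80, 46 and 41 tags in KO and 61, 51 and 65 in WT (-0.30), and its groups overlapped.

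Gaa, the lysosomal acid alpha-glucosidase that breaks down glycogen, showed the opposite pattern to Rnf157. Its window in intron 15 of 19, chr11:119280817-119281817, had 29, 54 and 17 tags in KO, against 0, 0 and 0 in WT, at least 28.7-fold higher in KO. It stood in the KO site list alone. Input did not share the split, with 3, 1 and 0 tags in KO and 1, 4 and 0 in WT. At the Gaa promoter KO had 48, 88 and 46 tags and WT 59, 34 and 44 (log2 fold change 0.16).

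Fbf1, which encodes a protein of the base of cilia, was higher in KO in intron 5 of 30. The window chr11:116161803-116162803 had 17, 42 and 46 tags in KO, against 2, 5 and 5 in WT (log2 fold change 2.90, SE 0.692), and stood in the KO list alone. Its promoter had 29, 18 and 29 tags in KO and 15, 9 and 11 in WT (0.91). Tmem104, a gene for a transmembrane protein, was higher in KO in intron 8 of 9. The window chr11:115218541-115219541 had 18, 41 and 32 tags in KO, against 3, 6 and 1 in WT (2.92, SE 0.769). Without WT replicate 2, the WT library with most tags there, the log2 fold change was 3.60. The strong windows near the start of Tmem104 differed little, with a log2 fold change of 0.03 at the highest of them.

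Gm11696, a non-coding RNA gene beside Gna13, was the nearest gene to another of the 12 windows. That window, chr11:109367906-109368906 in intron 2 of 3 of Gna13, had 181, 142 and 132 tags in KO, against 76, 69 and 28 in WT (log2 fold change 1.16, SE 0.303). WT replicate 3 was the lowest and no library of the groups overlapped. Nearer the Gm11696 start site, KO had 206, 230 and 164 tags and WT 126, 155 and 171 (0.19).

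The filter kept 2 of the 5 windows at 0 in a genotype out of the fit. One lay 5051 bases upstream of a TSS of Sept9, a septin gene, at chr11:117194110-117195110, and had 0, 0 and 0 tags in KO and 10, 10 and 5 in WT (at least 9.69-fold lower in KO). Input there had 4, 0 and 1 tags in KO and 6, 4 and 2 in WT. The other lay in the 3′ UTR of C1qtnf1, a secreted C1q and TNF-related protein gene, at chr11:118448764-118449764, with 0, 0 and 0 tags in KO and 5, 21 and 34 in WT (at least 23.3-fold lower). Input there was 1, 4 and 2 in KO and 2, 1 and 1 in WT.

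**Figure D3:**
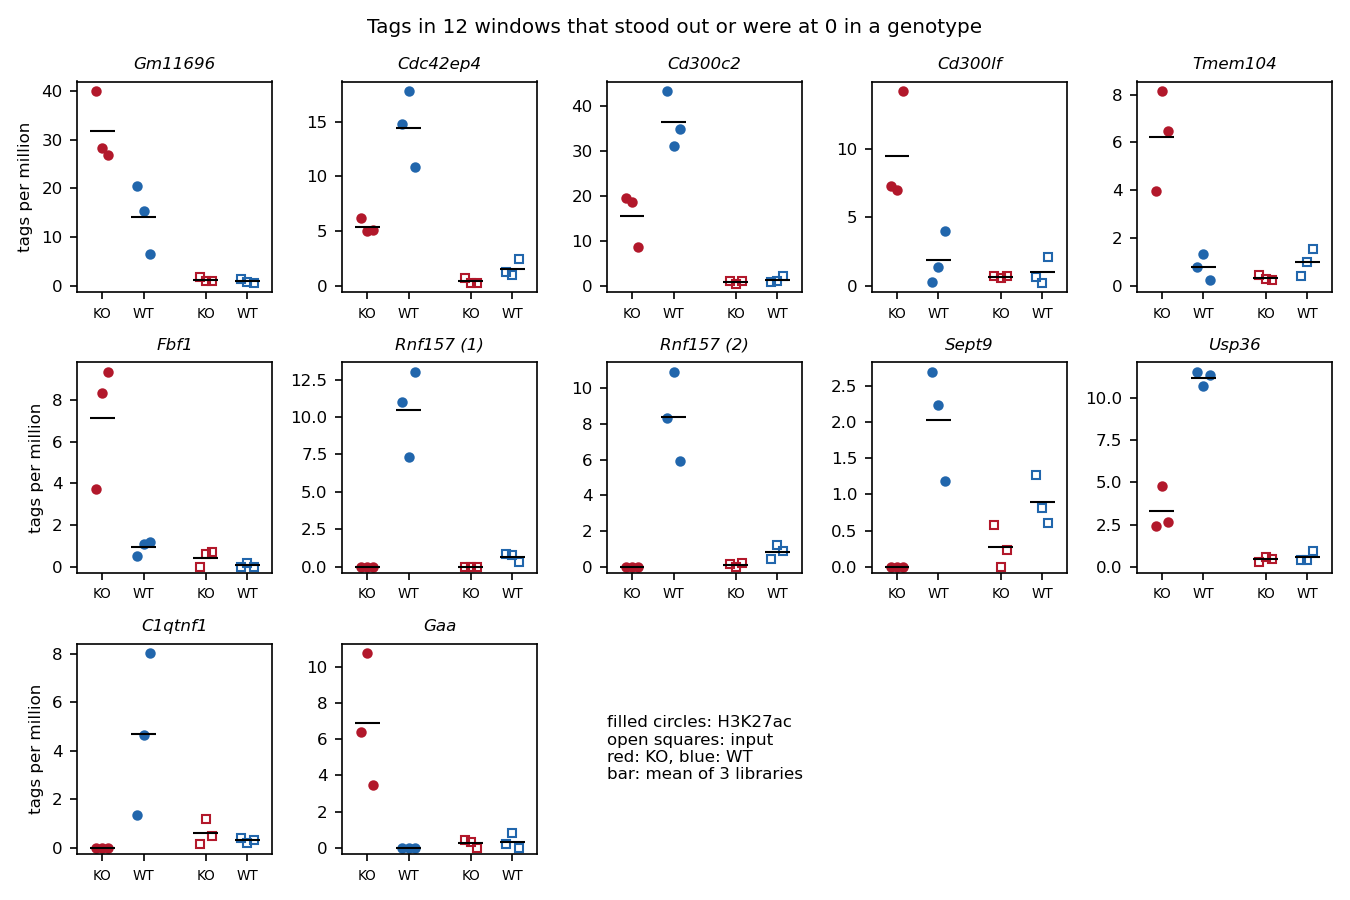
CPM in 12 of the 14 windows, with KO left of WT; filled circles are H3K27ac libraries, open squares input libraries and bars the means of 3. The windows were chosen by a p under 0.001 between KO and WT or by 0 tags in a genotype. That no KO library overlaps a WT library in H3K27ac in these 12 windows is therefore only a description. The Rnf157, Sept9 and C1qtnf1 windows lie at 0 in KO and the Gaa window at 0 in WT.

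Neighbouring windows lay on the same side as the locus more often than on the other, but not at every locus. Within 20 kb of the 5 loci higher in KO, 24 further windows were tested, of which 17 were above 0 and 7 below. The Gm11696 locus alone gave 10 of these 17, from 11 tested neighbours. Around the 7 lower loci, 23 were tested, of which 17 were below 0 and 6 above. In the segment 54.1% of tested windows were below 0, against 49.6% of all. Neighbours share the libraries and in part the tags, so they are no independent check. At Tmem104 only 1 of 5 neighbours shared the direction, and at Rnf157 none of 2 did.

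Per gene, summing windows within 100 kb of the TSS, 124 of the 164 genes were tested. An adjusted p under 0.05 (edgeR's quasi-likelihood test) was found for 3 (2.42%), against 0.206% of all genes tested. Cd300lf and Cd300c2 were 2 of them. An unadjusted p under 0.05 was found for 19 (15.3%), against 5.77% of all. Log2 fold changes were below 0 for 81 genes (65.3%), against 49.8% of all, with a median of -0.08 in the segment and 0.00 over all. The segment was chosen by this same contrast, so nothing is read from these shares. The 3 calls were fragile: leaving out KO replicate 2 or 3, or WT replicate 1 or 2, left 0 of them, and leaving out WT replicate 3 left Cd300lf.

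Among the lysosome and vesicle traffic genes, 11 were tested, with 4 above 0 and 7 below and a median log2 fold change of -0.10. The highest promoters were those of Gga3, an adaptor of the trans-Golgi network (13.6 CPM in KO and 14.3 in WT), Tbc1d16, a Rab GTPase-activating protein gene (10.8 and 13.3), and Gaa (12.5 and 11.3). The widest per-gene difference was at Exoc7, an exocyst subunit gene (-0.82, SE 0.782).

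Of the cytokine, growth factor and kinase signalling genes, 12 were tested, with 6 above 0 and 6 below and a median of -0.02. Socs3 was the gene of the list with most windows, and its 22 windows together gave a log2 fold change of 0.11 (SE 0.103). The highest promoters were Wbp2 (36.6 CPM in KO and 41.7 in WT), Prkar1a, a regulatory subunit of protein kinase A (19.7 and 17.7), and Sec14l1 (19.9 and 16.3). Baiap2 had the widest difference (0.35, SE 0.306).

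The ubiquitin list had 8 genes tested, 5 above 0 and 3 below, with a median of 0.07. Its promoters at Unk (50.3 CPM in KO and 64.4 in WT), Trim47 (42.6 and 36.7) and Trim65 (29.2 and 28.1) were the highest. The widest difference was at the conjugating-enzyme gene Ube2o (1.22, SE 0.628), with 38, 40 and 17 tags in KO and 3, 17 and 15 in WT. Rnf157 as a whole was at -0.84 (SE 0.227).

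Of the chromatin and RNA processing genes, 8 of 10 tested were below 0, where 65.3% of the segment's tested genes and 49.8% of all were, with a median of -0.25. Promoters of the splicing factor gene Srsf2 (22.3 CPM in KO and 24.7 in WT), the histone H3.3 gene H3f3b (19.9 and 17.95) and Jmjd6 (14.9 and 19.7) were the highest. The helicase gene Recql5 had the widest difference (-2.30, SE 0.769), with 4, 5 and 7 tags in KO and 30, 13 and 26 in WT.

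For metabolism and mitochondria 11 genes were tested, with 3 above 0 and 8 below and a median of -0.03. One gene of this list was called lower. Promoters were highest at Slc16a6 (47.3 CPM in KO and 42.0 in WT), the ferredoxin reductase gene Fdxr (10.8 and 14.8) and Pgs1, a gene of cardiolipin synthesis (8.19 and 7.13). The widest difference was at Mrpl58, listed under its older symbol Ict1 and coding for a mitochondrial ribosome protein (1.14, SE 0.420), with 55, 61 and 49 tags in KO and 19, 24 and 21 in WT.

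Of the ABCA lipid transporters 2 were tested, Abca6 at -0.47 (SE 0.505) and Abca9 at 0.21 (SE 0.275). Genes of neurons, astrocytes, ependyma and vessels had the lowest promoters, with a median of 0.320 CPM in KO and 0.282 in WT, where promoter windows of the segment as a whole had 6.36 and 6.70. The exceptions were the potassium channel genes Kcnj16 (15.5 in KO and 13.1 in WT) and Kcnj2 (6.62 and 6.74), followed by Foxj1 (0.406 and 0.447). Foxj1, the regulator of motile cilia, also had the widest difference of this list (-1.98, SE 0.624), from windows that lie inside Rnf157. Medians were 2.52 in KO and 2.73 in WT for CD300 promoters and 13.7 and 13.5 for the ubiquitin list.

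**Figure D4:**
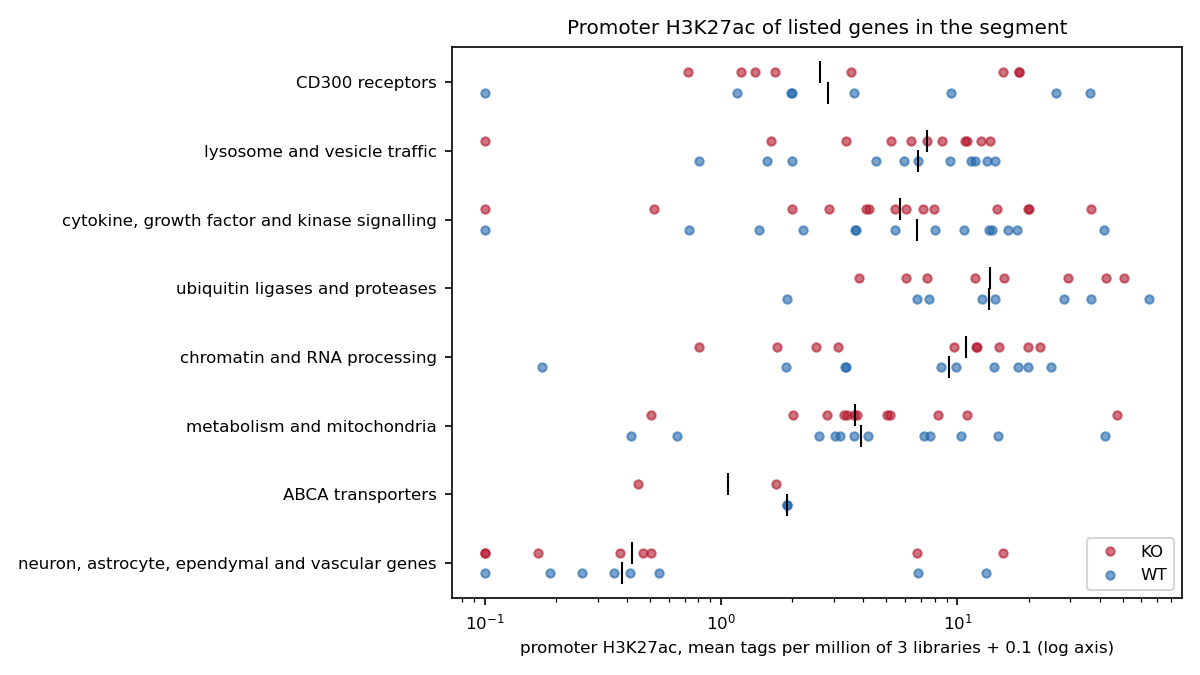
Promoter H3K27ac of the listed genes of the segment, as the mean CPM of 3 libraries plus 0.1 on a log axis, with KO above (red) and WT below (blue) in each list and black ticks at the medians. The ubiquitin list has the highest medians, 13.7 in KO and 13.5 in WT, and the neuron, astrocyte, ependymal and vascular list the lowest, 0.320 and 0.282.

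Input chromatin was the readout that took no part in choosing the segment. Over all 787 windows, input collected 515, 447 and 474 CPM in KO, against 548, 572 and 614 in WT. The groups did not overlap, at 479 ± 34.1 in KO and 578 ± 33.3 in WT (SD, n = 3 each), a difference of -99.8 and a ratio of 0.827. The exact two-sided permutation test gave p = 0.1, the smallest that 3 against 3 libraries allow. Per tag in all windows of the library the ratio was 0.859, and against TMM-scaled totals, a scaling chosen after the data had been seen, it was 0.950.

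Input was next compared in 1 Mb bins with TMM scaling over the genome. The log2 fold changes of KO over WT ran from -0.17 in the bin from 113 Mb to 0.02 in the bin from 111 Mb, and 9 of 10 bins were below 0, against 48.2% of all 1809 bins. By edgeR's quasi-likelihood test 0 of 10 bins had an adjusted p under 0.05, and 0 did so before adjustment. DESeq2 also called 0. Over all bins 0.940% were called and 6.25% had an unadjusted p under 0.05. With total tags in place of TMM, the median of all bins moved to -0.18 and that of the segment's bins to -0.28.

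At the 7 windows lower in KO H3K27ac, the input was lower in KO as well. Summed over these windows, input had 26, 7 and 16 tags in KO and 31, 35 and 30 in WT, or 3.20 ± 0.950 CPM in KO and 7.60 ± 1.35 in WT. The ratio was 0.421, against 0.827 over the whole segment. Without the 2 Rnf157 windows, a choice made after seeing the data, input had 3.07 CPM in KO and 6.09 in WT, a ratio of 0.504. These windows were picked by H3K27ac from the same lysates, so the values are a description with no test.

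At the 5 windows higher in KO H3K27ac, the input values of the groups overlapped. Input had 23, 9 and 11 tags in KO and 13, 15 and 14 in WT, or 2.86 ± 0.388 CPM in KO and 3.35 ± 0.798 in WT. Input was taken from the immunoprecipitated lysates, so the 2 kinds of library share their animals. With 7 to 35 tags per library, these sums are small, and the part of input in the H3K27ac differences was not tested.

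**Figure D5:**
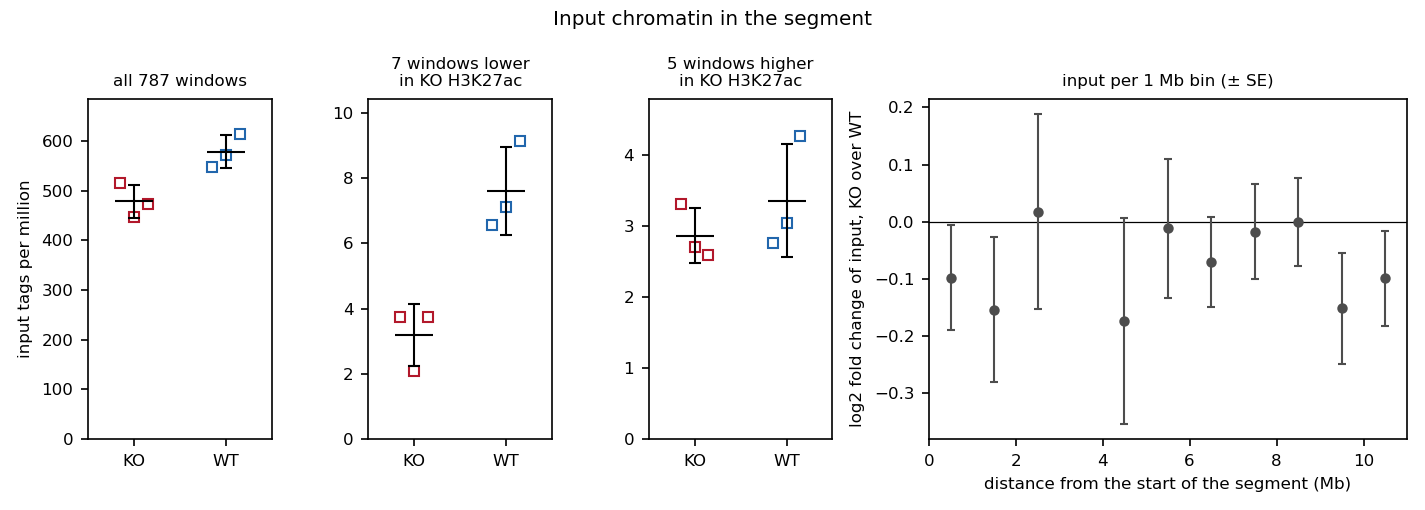
Input CPM over all 787 windows, the 7 windows lower and the 5 windows higher in KO H3K27ac, with KO left of WT, squares for libraries and bars for the mean ± SD of 3, and at right the log2 fold change of input, KO over WT, in each 1 Mb bin with its SE. The 7 lower windows stand at 3.20 in KO and 7.60 in WT, while the bins lie between -0.17 and 0.02.

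Of the 4 windows at the limits of the segment, 3 held few tags. The last window before the segment, chr11:108924819-108925819, had 3, 0 and 0 H3K27ac tags in KO and 0, 2 and 0 in WT, and the first inside was the Axin2 window described above, with a log2 fold change of -0.74. The last inside, chr11:119990996-119991996, had 0, 0 and 0 tags in KO and 4, 0 and 3 in WT. The first beyond 120 Mb, chr11:120012793-120013793, had 15, 10 and 1 in KO and 1, 5 and 6 in WT.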

How the data were processed

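H3K27ac chromatin immunoprecipitation and input sequencing of KO and WT microglia was used, 3 libraries per group. The values are raw tag counts deposited by the authors for each library in every window, not normalized. The counting was done without adjustment by annotatePeaks.pl of HOMER (genome mm10), around merged accessible sites widened to 1000 bp, per the file headers. DESeq2 is also named in the submitters' processing notes. No aligner is given in the sources used here. The scaled copy of the table was left aside.

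Computed here were CPM, tags scaled by the library's total tags (mean ± SD), and edgeR 4.0.16 quasi-likelihood fits (R 4.3.3, filterByExpr, Benjamini-Hochberg, threshold 0.05) over the whole table. H3K27ac and input bins compared between genotypes used TMM, and H3K27ac over input used total tags. Each window was given to the nearest TSS in the file. The fits were tested on simulated data. Sums of input were compared by exact permutation over libraries. DESeq2 1.42.0, other scalings and filters, a replicate block and leaving out libraries were alternatives. A fold against 0 used 3 tags over the group as its floor. No molecular identifiers are described, so counting floors cover counting error only.

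Windows were named if the H3K27ac p was under 0.001, if a genotype was at 0, if among the 10 strongest, or at a limit of the segment, and genes by promoter level and widest change in 8 lists. The members and lists were chosen with earlier results of these data known. Of 164 genes, 160 matched RefSeq on chromosome 11. One locus of the segment is not reported here.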

Additional observations from a re-analysis of the deposited data

How the results depend on the processing

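For H3K27ac of KO over WT, the 12 windows under 0.001 became 19 with DESeq2 and 19 with no filter on low counts, and the 4 with an adjusted p under 0.05 became 9 and 8. The 3 called genes became 1 with total tags in place of TMM, 6 with no filter and 0 with promoter windows alone. DESeq2 and the unfiltered fit kept all 12 windows, and the fit without overlapping windows had 8 of them. Leaving out 1 library gave 8 to 11 windows under 0.001, 1 to 4 with an adjusted p under 0.05, and 0 to 2 genes. Windows above input fell to 58 in KO and 52 in WT with TMM, where 1 of the windows reported as above input in KO and 6 in WT were called below it, and were 356 to 393 and 355 to 373 with 1 library left out, where the filter keeps more windows. The cause of the other shifts was not tested. Input over the segment differed by -118 to -81.9 CPM with 1 library left out, input at the 7 lower windows by -4.92 to -3.64 and at the 5 higher windows by -0.790 to -0.0377; called bins stayed at 0. Same-numbered libraries had correlations across windows of -0.000897 to 0.0126, so the numbers were not taken to pair KO with WT. H3K27ac and input of 1 genotype may share a lysate by number, since WT replicate 1 lacked tags at Y-linked promoters in both. The replicate block gave 9 windows under 0.001, 3 with an adjusted p under 0.05, 2 genes, 331 and 326 windows above input and 0 bins. Depth limits single windows, which had a median of 10 to 14 H3K27ac and 2 to 4 input tags in the segment.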
